A study of Homo sapiens with 9 samples.

Results

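Interferon-stimulated genes were followed in RNA-seq of a triple-negative breast cancer line, MDA-MB-231, across cells that had survived 2 inducers of ferroptosis, an iron-dependent death through lipid peroxidation. The 38 genes were taken by name, and all 38 had an entry among the 58735 genes counted in each library. Vehicle-treated cells received DMSO, erastin-R cells had survived increasing concentrations of erastin, an inhibitor of system xc-, and RSL3-R cells had survived increasing concentrations of RSL3, an inhibitor of GPX4. Each condition had 3 libraries, numbered as replicates 1 to 3, and all 3 conditions came from this 1 cell line. Their doses and time under drug were not used here. No source states that the libraries of a condition were separate cultures, so the p values measure only the spread between these libraries, which may be technical.

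Interferons are secreted proteins that bind receptors on the cell surface, and the receptor-bound kinases JAK1 and TYK2 then activate STAT proteins. A complex that contains STAT2 and IRF9 binds interferon-stimulated response elements in promoters and switches on genes whose products sense, cut or sequester foreign RNA. Many of these genes are also transcribed at a low level without added interferon, and RNA or DNA sensed in the cytosol can raise them through IRF factors. The members were grouped by role as IFIT RNA-binding proteins, the OAS family, MX GTPases, the ISG15 conjugation system, cytosolic RNA helicases, transcription factors, PARP enzymes and other effectors.

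Total counts ranged from 15405102 to 17273464 per library, so that 3 counts corresponded to 0.175 to 0.193 CPM, that is counts scaled to a common library size. Libraries of 1 condition correlated at 0.986 to 0.992 across genes, and libraries of different conditions at 0.959 to 0.972. Erastin-R replicate 1 stood apart from the other two erastin-R libraries, with a chi-square per gene of 27.6 and 26.9 against them, whereas the other pairs within a condition lay at 2.56 to 5.87. Of the markers of this cell line, VIM, CD44, AXL and CAV1 were high (lowest library 231 CPM, for CD44), whereas SPARC reached only 4.54 CPM. The receptor genes ESR1 and PGR had at most 12 counts, whereas ERBB2 stood at 59.8 to 96.9 CPM. Of the leukocyte markers PTPRC, CD3E and CD14, CD3E had at most 4 counts, and the sum of the 3 ranged from 3.71 to 4.69 CPM in vehicle-treated, 1.46 to 2.38 for erastin-R and 4.10 to 5.03 for RSL3-R cells. This sum was lowest in erastin-R cells, as were many of the levels that follow, and its part in them was not tested.

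The promoters of 31 members were matched in RefSeq (GRCh38.p14), each covering 250 bases upstream of the start site and 50 bases after it. They were searched for a motif like the interferon-stimulated response element, GAAANNGAAA, on both strands, so that TTTCNNTTTC on the printed strand also counted and overlapping matches were counted apart. The motif was found in 20 of the 31 members (64.5%), against 4.38% of 27305 gene symbols with a promoter, and 12 members (38.7%) held at least 2 matches. Windows of 9 members are printed in the direction of the gene, with 20 bases on either side of the matches and the matches in capitals. They were chosen among the members that held a match, for large differences in RNA between conditions, with ISG15 and IFIT1 as classical interferon-stimulated genes.
OAS3, chr12:112938311-112938491, plus strand: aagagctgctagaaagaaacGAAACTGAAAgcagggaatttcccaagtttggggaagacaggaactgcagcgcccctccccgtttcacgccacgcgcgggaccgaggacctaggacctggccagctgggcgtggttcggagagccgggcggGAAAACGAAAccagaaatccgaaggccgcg
SAMD9, chr7:93118086-93118135, minus strand: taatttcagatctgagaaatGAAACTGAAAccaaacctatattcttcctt
EPSTI1, chr13:42992262-42992311, minus strand: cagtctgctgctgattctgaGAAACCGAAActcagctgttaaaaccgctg
IFI44L, chr1:78620264-78620404, plus strand: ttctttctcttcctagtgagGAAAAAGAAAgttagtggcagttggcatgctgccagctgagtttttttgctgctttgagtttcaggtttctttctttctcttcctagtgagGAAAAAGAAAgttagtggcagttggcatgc
ISG20, chr15:88638927-88638976, plus strand: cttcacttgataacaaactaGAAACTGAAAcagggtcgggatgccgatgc
DDX60, chr4:168318776-168318860, minus strand: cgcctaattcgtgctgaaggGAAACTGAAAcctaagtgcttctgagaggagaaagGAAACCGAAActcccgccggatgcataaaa
HERC5, chr4:88456974-88457074, plus strand: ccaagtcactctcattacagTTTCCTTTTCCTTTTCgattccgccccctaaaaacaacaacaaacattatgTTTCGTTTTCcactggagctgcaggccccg
IFIT1, chr10:89392487-89392549, plus strand: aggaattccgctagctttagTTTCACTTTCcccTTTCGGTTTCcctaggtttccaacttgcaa
ISG15, chr1:1013364-1013419, plus strand: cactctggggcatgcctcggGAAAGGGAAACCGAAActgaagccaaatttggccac
Among the windows printed, those of OAS3, SAMD9, ISG20 and DDX60 held the same match, GAAACTGAAA. The capitals of HERC5 and ISG15 hold overlapping matches, and IFI44L has the same match in both positions. The promoter of SAMD9L, which lies 12032 bases from SAMD9, held no match, nor did those of XAF1 and HERC6. A second motif, TTCNNNGAA, like the gamma-activated site that STAT dimers bind, was found in 10 of the 31 members (32.3%) and in 9.38% of gene symbols. All start sites are those of RefSeq, and for some genes, such as ISG15 (chr1:1001138-1014540 in GENCODE 29), the annotated gene also covers bases upstream of them. A match is a description of the letters and was not tested as a binding site. IFIT2, OAS2, OASL, MX2, USP18, DHX58 and IRF7 were not in the promoter table.

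**Figure D1:**
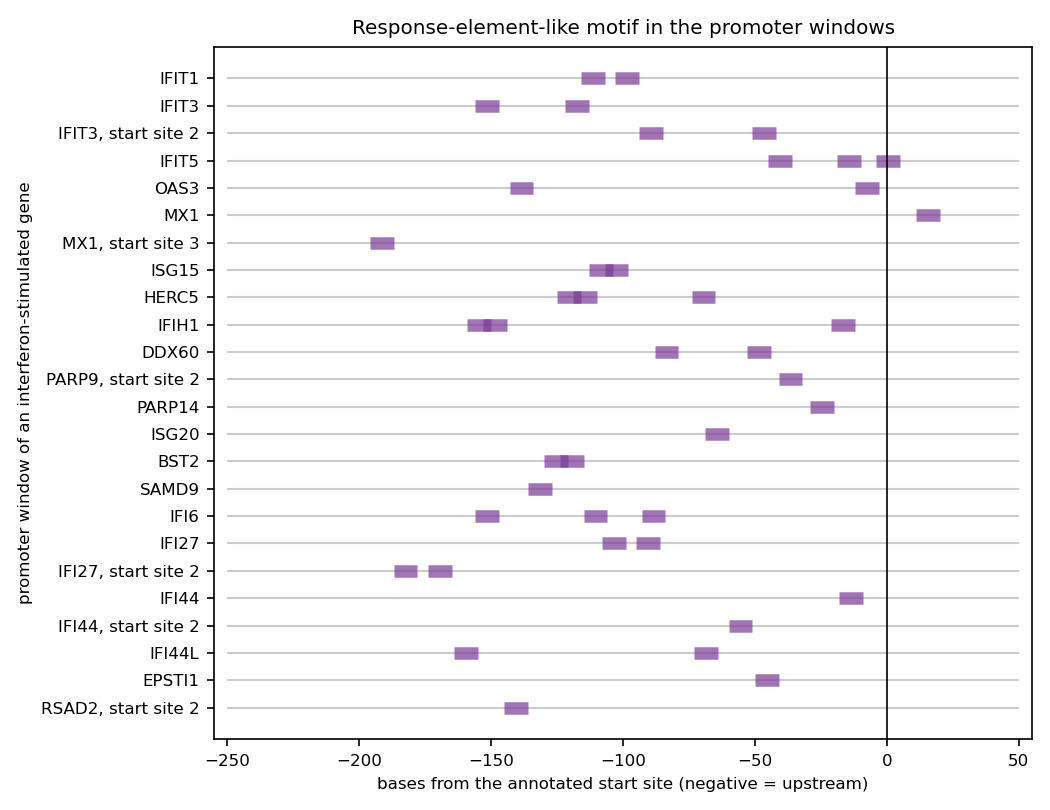
Position of the response-element-like motif in the promoter windows of the 20 members that held it, in bases from the annotated start site (0, vertical line). Each grey line is 1 window from 250 bases upstream to 50 bases downstream, members with matches at a further start site have further lines, and each bar is 1 match; most matches lay upstream of the start site.

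The 38 members differed widely in level. ISG15, the ubiquitin-like modifier, was the highest per length in every condition, at 39.1 CPM per kilobase in vehicle-treated, 48.8 for erastin-R and 47.4 for RSL3-R cells. BST2, which tethers virus particles to the cell surface, and STAT2 took the next ranks in each condition, at 37.3 and 20.2 CPM per kilobase in vehicle-treated cells. MX2, a GTPase that blocks virus entry into the nucleus, was the lowest of the tested members per length in all 3 conditions (0.198 CPM per kilobase in vehicle-treated cells). CMPK2 had no count in any library, which allows up to 3 counts in each, and its neighbour RSAD2 had 7 counts in RSL3-R replicate 2, 1 in RSL3-R replicate 3 and none elsewhere. OAS1 had 2, 2 and 7 counts in vehicle-treated, 10, 10 and 6 with erastin-R and 7, 10 and 6 with RSL3-R cells. With a filter of 10 counts in at least 3 libraries, which OAS1 just meets, edgeR's quasi-likelihood test gave it a log2 fold change of 1.22 ± 0.57 (SE) in erastin-R (adjusted p = 0.0852) and 1.05 ± 0.58 in RSL3-R cells (adjusted p = 0.151), both against vehicle. OAS1 reached 10 counts only in libraries of the survivor groups, where it was higher, so this filter favours a rise. RSAD2 and CMPK2 got no fold change, and with edgeR's own filter on low counts, used for all further values, the other 35 members were tested among 16188 genes.

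**Figure D2:**
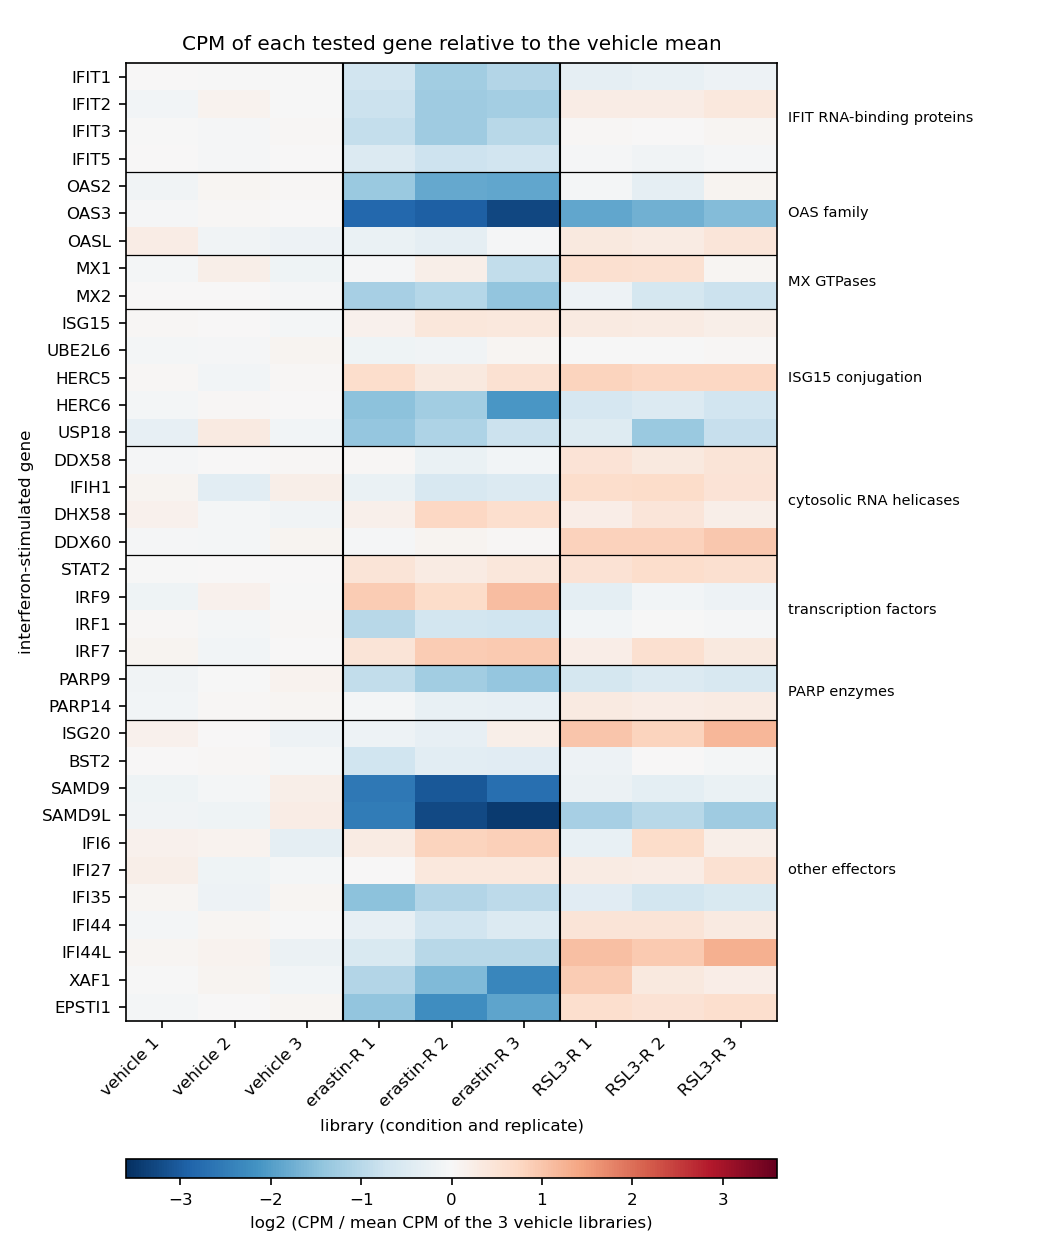
Level of each of the 35 tested members in each of the 9 libraries, as log2 of its CPM over the mean CPM of the 3 vehicle libraries, grouped by role; blue is lower and red higher than vehicle. Most rows are blue in the 3 erastin-R libraries, deepest for OAS3, SAMD9 and SAMD9L, and more rows are red than blue in the RSL3-R libraries.

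The first comparison asked how cells that survived erastin differed from vehicle-treated cells. Of the 35 members, 21 fell (60.0%) and 6 rose (17.1%) at an adjusted p below 0.05 in erastin-R cells, and 8 did not pass. Among all genes tested, 26.8% fell and 27.1% rose. With a log2 fold change of at least 1 in size in addition, 13 members fell and none rose, where 6.66% and 6.7% of all genes did. Of the 13, IFIT2, IFIT3 and USP18 lay close to this threshold, and IFIT1, at -0.99, just missed it. The count of 0 comes from edgeR's quasi-likelihood test and was also 0 at an unadjusted p below 0.05, with DESeq2 and with limma. The largest increase, of IRF9, was 0.91 on the log2 scale. Over 16 other fits it ranged from 0.80 to 1.02 and was called higher in all 16, so the count was not 0 in every fit. The median log2 fold change of the members was -0.50, and that of all genes was -0.0042. The erastin-R libraries lay below all vehicle libraries for 19 members, above them for 7, and overlapped with them for 9. The same count over all genes was not made for any comparison, so whether such counts are unusual is not known. In bulk RNA, fewer cells that express a gene and less RNA of it per cell cannot be told apart. Summed over the members, the level was 777, 787 and 807 CPM in the vehicle-treated libraries and 668, 627 and 658 CPM in the erastin-R libraries.

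The deepest falls were in OAS3, SAMD9L and SAMD9. OAS3 (chr12:112938352-112973249, plus strand), an oligoadenylate synthetase that is activated by double-stranded RNA, stood at 23.1, 24.0 and 23.6 CPM in vehicle-treated cells and at 3.34, 3.05 and 2.43 CPM in erastin-R cells. Its vehicle libraries were closely grouped and none came near an erastin-R library. The log2 fold change was -3.00 ± 0.14 (SE, adjusted p = 1.80e-09), a mean level 8.01-fold lower. SAMD9L (chr7:93130055-93148369, minus strand), an antiviral restriction factor, stood at 13.2, 12.9 and 17.2 CPM in vehicle-treated cells and at 2.50, 1.53 and 1.34 CPM in erastin-R cells. The groups did not overlap, and erastin-R replicate 1 was the highest of its group. The log2 fold change of SAMD9L was -3.00 ± 0.21 (adjusted p = 6.23e-08). Its neighbour and relative SAMD9 (chr7:93099513-93118023, minus strand), at 23.4, 25.0 and 30.2 CPM, fell to 4.41, 3.18 and 4.01 CPM, again without overlap. This was a log2 fold change of -2.75 ± 0.14 (adjusted p = 4.00e-09), 6.78-fold lower by the means.

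EPSTI1, OAS2 and HERC6 completed the 6 largest changes in erastin-R cells. EPSTI1 (chr13:42886388-42992271, minus strand), an interferon-induced protein first described in epithelial cells next to stroma, was at 4.53, 4.82 and 5.0 CPM in vehicle-treated cells and 1.79, 1.02 and 1.28 CPM in erastin-R cells (log2 fold change -1.80 ± 0.20, adjusted p = 5.12e-06). OAS2 (chr12:112978395-113011723, plus strand), a further oligoadenylate synthetase, was at 9.60, 11.0 and 10.7 CPM against 4.11, 2.93 and 2.86 CPM (-1.66 ± 0.17, adjusted p = 2.29e-06). HERC6 (chr4:88378739-88443111, plus strand), a HECT ubiquitin ligase, was at 10.7, 11.5 and 11.4 CPM against 3.99, 4.71 and 2.61 CPM (-1.57 ± 0.17, adjusted p = 4.54e-06). In each of the 3 genes every erastin-R library lay below every vehicle library.

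All 4 IFIT genes fell in erastin-R cells. Their log2 fold changes were -0.99 for IFIT1, -1.07 for IFIT2, -1.04 for IFIT3 and -0.64 for IFIT5, and their libraries did not overlap with those of vehicle. These 4 genes lie near each other on chromosome 10, with gaps of 8100 to 51575 bases. Of the OAS family, OASL did not pass (-0.20 ± 0.14, adjusted p = 0.259). Of the MX GTPases, MX2 fell from 41 to 44 counts per library to 16 to 20 (-1.19 ± 0.25, adjusted p = 0.00108), and MX1 had -0.17 ± 0.26 (adjusted p = 0.595).

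The ISG15 conjugation system was split. ISG15 rose by 0.32 ± 0.08 on the log2 scale (adjusted p = 0.00530) and HERC5, the main human ligase for ISG15, by 0.53 ± 0.09 (adjusted p = 2.44e-04). HERC6 fell, as given above, and so did USP18, which removes ISG15 from proteins and restrains the interferon receptor (-1.06 ± 0.36, adjusted p = 0.0230). USP18 was close to the detection limit, with 17, 25 and 19 counts in vehicle-treated and 8 to 12 in erastin-R cells. It reached 10 counts in every library only in vehicle-treated cells, the condition where it was highest. UBE2L6, the conjugating enzyme for ISG15, had -0.07 ± 0.08 (adjusted p = 0.501). HERC5 and HERC6 lie 14006 bases apart on chromosome 4.

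The transcription factors moved in different directions. STAT2 rose from 122, 125 and 123 CPM to 168, 151 and 164 CPM in erastin-R cells (log2 fold change 0.39 ± 0.06, adjusted p = 9.86e-05), without overlap. IRF7, which activates interferon genes, rose from 14.1, 12.4 and 13.3 CPM to 18.2, 25.1 and 25.3 CPM (0.79 ± 0.14, adjusted p = 2.75e-04). Replicate 1 was the erastin-R library nearest to vehicle for IRF7. IRF9, the partner of STAT2, was low and rose from 2.15, 2.66 and 2.34 CPM to 4.53, 3.75 and 5.17 CPM (0.91 ± 0.19, adjusted p = 0.00127). Of the exon bases of IRF9, 48.4% are shared with AL136295.5 on the same strand, so its counts are uncertain. AL136295.5 had 20 to 40 counts in vehicle-treated and 29 to 46 in erastin-R cells. IRF1, a factor downstream of interferon gamma, fell from 31.3, 28.8 and 31.2 CPM to 15.1, 19.2 and 18.5 CPM (-0.79 ± 0.10, adjusted p = 1.23e-05). IRF1 shares 22.0% of its exon bases with the opposite strand, mostly with C5orf56, which had 75 to 120 counts in vehicle-treated and 35 to 42 in erastin-R cells. The library kit did not mark strand, so reads of IRF1 and C5orf56 in the shared part cannot be told apart.

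Among the cytosolic RNA helicases, DHX58 (LGP2) rose by 0.53 ± 0.16 on the log2 scale (adjusted p = 0.0134) and IFIH1 (MDA5) fell by 0.43 on that scale (SE 0.16, adjusted p = 0.0369), with overlapping libraries for IFIH1. DDX58 (RIG-I) had -0.10 ± 0.08 and DDX60, its cofactor, 0.03 ± 0.09, and neither passed. Both PARP enzymes, which attach ADP-ribose to proteins, fell, with log2 fold changes of -1.15 ± 0.13 for PARP9 (adjusted p = 5.63e-06) and -0.20 ± 0.08 for PARP14 (adjusted p = 0.0331), the latter with overlapping libraries. Of the 11 tested other effectors, 8 fell and none rose with edgeR (1, IFI6, rose at an unadjusted p below 0.05 and with limma, and none with DESeq2). XAF1, a partner of the apoptosis inhibitor XIAP, fell from 3.04, 3.34 and 2.90 CPM to 1.49, 1.02 and 0.608 CPM (-1.56 ± 0.30, adjusted p = 5.64e-04), without overlap. IFI35 (-1.14), IFI44L (-0.83), BST2 (-0.50) and IFI44 (-0.48) also fell, whereas IFI6 (0.67, adjusted p = 0.0521), IFI27 (0.27) and ISG20 (-0.07) did not pass.

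**Figure D3:**
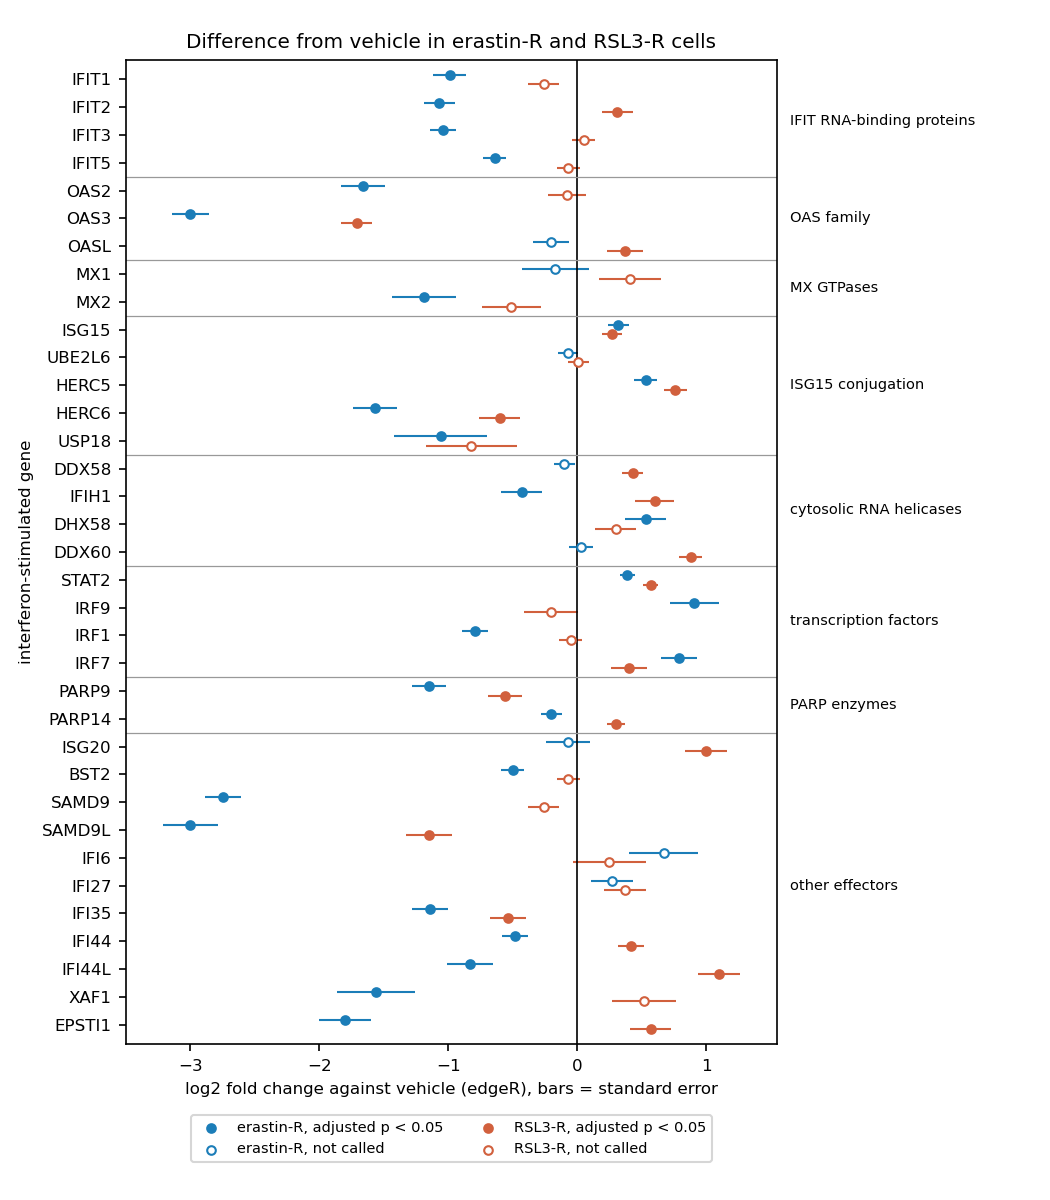
Log2 fold change of each tested member against vehicle, blue for erastin-R and orange for RSL3-R cells, with the standard error from edgeR as bars. Filled points had an adjusted p below 0.05 and open points did not; SAMD9L and OAS3 reach -3.00 in erastin-R cells and IFI44L reaches 1.10 in RSL3-R cells.

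The second comparison asked the same of cells that survived RSL3. Of the 35 members, 14 rose (40.0%) and 5 fell (14.3%) in RSL3-R cells against vehicle, and 16 did not pass. Among all genes, 23.8% rose and 24.9% fell. With the fold threshold, 2 members rose (IFI44L and ISG20) and 2 fell (OAS3 and SAMD9L), where 6.02% and 4.08% of all genes did. The median was 0.27 for the members and 0.0052 for all genes. The RSL3-R libraries lay above all vehicle libraries for 17 members, below them for 9, and overlapped for 9, again without a count over all genes. Summed over the members, they stood at 912, 920 and 930 CPM, above each vehicle library. This comparison used the same vehicle libraries as the first.

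OAS3 and SAMD9L fell here too. OAS3 was at 6.38, 7.08 and 8.01 CPM in RSL3-R cells (log2 fold change -1.71 ± 0.12, adjusted p = 8.50e-08). SAMD9L was at 6.32, 7.27 and 5.96 CPM (-1.15 ± 0.18, adjusted p = 1.05e-04). Both lay below all vehicle and above all erastin-R libraries. SAMD9, in contrast to its neighbour, was at 22.6, 20.6 and 22.4 CPM and did not pass (-0.26 ± 0.12, adjusted p = 0.0790), although all 3 libraries were below those of vehicle. IFIT1 was similar (-0.26 ± 0.12, adjusted p = 0.0886).

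The largest increases in RSL3-R cells were in IFI44L, ISG20, DDX60 and HERC5. IFI44L (chr1:78619922-78646145, plus strand), a cytosolic protein induced by interferon, was at 5.48, 5.68 and 4.56 CPM in vehicle-treated and 11.1, 10 and 12.6 CPM in RSL3-R cells (log2 fold change 1.10 ± 0.16, adjusted p = 5.77e-05). ISG20 (chr15:88636153-88656483, plus strand), an RNA exonuclease, went from 7.33, 6.61 and 5.80 CPM to 13.0, 11.4 and 15.1 CPM (1.0 ± 0.16, adjusted p = 1.30e-04), a mean level 2.0-fold higher. The groups of both genes were apart. DDX60 (chr4:168216293-168318807, minus strand) was at 18.2, 18.0 and 20.2 CPM in vehicle-treated, 18.2, 20.3 and 19.3 CPM for erastin-R and 33.2, 33.2 and 37.2 CPM for RSL3-R cells (RSL3-R against vehicle 0.88 ± 0.09, adjusted p = 2.82e-06). Vehicle and erastin-R libraries of DDX60 overlapped, and all RSL3-R libraries were above them. HERC5 (chr4:88457117-88506163, plus strand) was at 20.4, 18.7 and 20.5 CPM in vehicle-treated, 31.1, 25.6 and 29.3 CPM for erastin-R and 34.6, 33.1 and 33.5 CPM for RSL3-R cells (RSL3-R against vehicle 0.76 ± 0.09, adjusted p = 1.06e-05). HERC5 thus rose in both survivor groups while HERC6 fell in both (in RSL3-R cells 7.41, 7.89 and 6.90 CPM, -0.60 ± 0.16, adjusted p = 0.00693).

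By role, 3 of 4 helicases rose in RSL3-R cells, namely DDX60, IFIH1 (0.60) and DDX58 (0.43), and DHX58 had 0.30 ± 0.16 (adjusted p = 0.149). Of the IFIT genes, IFIT2 rose (0.31 ± 0.12, adjusted p = 0.0408), and IFIT3 (0.05) and IFIT5 (-0.07) overlapped with vehicle. OASL rose (0.37 ± 0.14, adjusted p = 0.0394), and OAS2, at 9.93, 8.39 and 11.2 CPM, overlapped with vehicle (-0.08 ± 0.15, adjusted p = 0.677). ISG15 rose by 0.27 ± 0.08 (adjusted p = 0.0142). MX1 (0.41) and MX2 (-0.51, adjusted p = 0.0866) did not pass, nor did USP18 (-0.82 ± 0.35, adjusted p = 0.0669), which was at 8 to 14 counts. PARP14 rose (0.30 ± 0.07, adjusted p = 0.00394) and PARP9 fell (-0.56 ± 0.13, adjusted p = 0.00207).

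Of the transcription factors, STAT2 reached 175, 190 and 184 CPM in RSL3-R cells (0.57 ± 0.06, adjusted p = 3.31e-06), above every vehicle and every erastin-R library. IRF7 was at 15.5, 19.9 and 16.8 CPM (0.40 ± 0.14, adjusted p = 0.0308), above vehicle in all libraries and overlapping with erastin-R cells. IRF9 was at 1.87, 2.24 and 2.10 CPM (-0.20 ± 0.21, adjusted p = 0.465) and IRF1 at 28.3, 30.2 and 29.7 CPM (-0.05 ± 0.09, adjusted p = 0.697), both overlapping with vehicle. Of the other effectors, EPSTI1, at 7.22, 6.84 and 7.25 CPM, rose without overlap (0.57 ± 0.16, adjusted p = 0.0104), and IFI44 rose (0.42 ± 0.10, adjusted p = 0.00298). IFI35 fell (-0.54 ± 0.14, adjusted p = 0.00481), and BST2, IFI6, IFI27 and XAF1 did not pass.

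**Figure D4:**
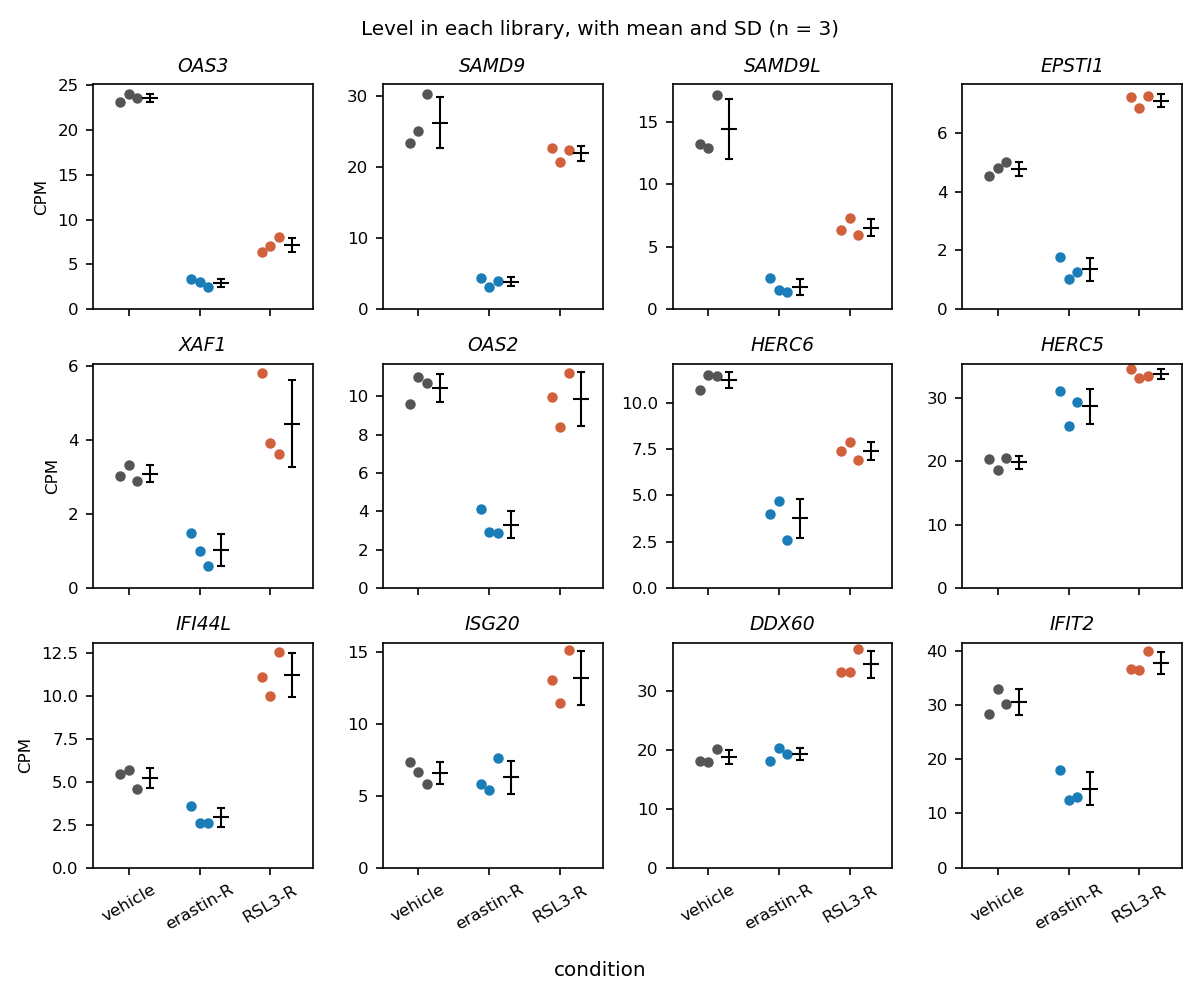
Level in CPM (vertical axes from 0, one scale per gene) of 12 members in each library of the 3 conditions (horizontal axes). Points are libraries and the bars beside them give the mean and SD of 3 libraries; DDX60 and ISG20 overlap between vehicle and erastin-R, and OAS3 and SAMD9L lie lowest in erastin-R and between the others in RSL3-R cells.

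Set side by side, the calls against vehicle fell into several patterns, and both sets of calls rest on the same vehicle libraries. The share of all genes in each pattern was not determined, so whether any pattern is unusual for the members is not known. HERC5, IRF7, ISG15 and STAT2 were higher in both survivor groups, and HERC6, IFI35, OAS3, PARP9 and SAMD9L were lower in both. EPSTI1, IFI44, IFI44L, IFIH1, IFIT2 and PARP14 fell in erastin-R cells but rose in RSL3-R cells. BST2, IFIT1, IFIT3, IFIT5, IRF1, MX2, OAS2, SAMD9, USP18 and XAF1 were lower in erastin-R cells and passed in neither direction in RSL3-R cells. DDX58, DDX60, ISG20 and OASL were higher in RSL3-R cells and did not pass in erastin-R cells, and the reverse held for DHX58 and IRF9. A pass in 1 group only need not be a difference between the groups. In RSL3-R against erastin-R cells (edgeR), USP18 (0.24 ± 0.39, adjusted p = 0.643) and DHX58 (-0.23 ± 0.16, adjusted p = 0.249) did not pass. The other 9 members called lower in erastin-R cells alone passed, as did DDX58, DDX60, ISG20, OASL and IRF9. IFI27, IFI6, MX1 and UBE2L6 passed in neither.

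The direct comparison tested the differences between the survivor groups themselves. In RSL3-R against erastin-R cells 26 of the 35 members were higher (74.3%) and 2 lower (5.71%), where 22.3% and 26.9% of all genes were. With the fold threshold, 11 were higher and 1 lower, against 6.86% and 3.48% of all genes. The median log2 fold change was 0.60 for the members and -0.0237 for all genes. With upper-quartile scaling, the calls over all genes moved from 3615 higher and 4354 lower to 4642 and 3235, and the median of all genes shifted by 0.10. Relative to the median of all genes the members' median was 0.63 with both scalings. The RSL3-R libraries were all above the erastin-R libraries for 26 members and all below for 1, also without a count over all genes.

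SAMD9 differed most, with a log2 fold change of 2.49 ± 0.14 (adjusted p = 1.59e-08), 5.65-fold by the means. EPSTI1 followed with 2.37 ± 0.19 (adjusted p = 5.04e-07). XAF1, at 5.80, 3.92 and 3.62 CPM in RSL3-R cells, had 2.08 ± 0.29 (adjusted p = 5.05e-05). For these 3 genes the levels in RSL3-R cells were all above those in erastin-R cells. XAF1 shares 38.3% of its exon bases with PRAL on the opposite strand, which had at most 2 counts. IFI44L (1.93 ± 0.17, adjusted p = 8.97e-07), SAMD9L (1.86 ± 0.22, adjusted p = 1.45e-05) and OAS2 (1.57 ± 0.17, adjusted p = 5.87e-06) came next. All 4 IFIT genes and all 3 tested OAS genes were higher in RSL3-R cells, as were DDX58, DDX60 and IFIH1 of the helicases, both PARP enzymes, and 9 of 11 other effectors.

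The exceptions included members of the transcription factor group. IRF9 was lower in RSL3-R than in erastin-R cells (-1.11 ± 0.20, adjusted p = 3.91e-04), without overlap, and IRF7 was lower with overlapping libraries (-0.39 ± 0.13, adjusted p = 0.0269). STAT2 (0.19 ± 0.06, adjusted p = 0.0193) and IRF1 (0.74 ± 0.10, adjusted p = 3.12e-05) were higher. ISG15 had -0.04 ± 0.08 (adjusted p = 0.696), UBE2L6 0.08 ± 0.08, DHX58 -0.23 ± 0.16 and IFI27 0.11 ± 0.15. MX2 passed narrowly (0.69 ± 0.26, adjusted p = 0.0416), and its call held in 3 of 16 other settings.

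Members with and without the response-element-like motif were both found among the genes that rose and fell. Of 19 tested members with the motif, 12 fell and 2 rose in erastin-R cells (median log2 fold change -0.48), and of 9 tested members without it, 5 fell and 2 rose (median -0.79). In RSL3-R cells the counts were 9 higher and 2 lower with the motif (median 0.30), and 2 higher and 3 lower without it (median -0.05). No test was made of these differences.

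The genes that make, sense and transmit interferon were examined as a list of 40 genes in the files. Of the 10 interferon genes in it, IFNK had at most 2 counts per library, IFNL1 at most 1 and the others none, which allows up to 3 counts in each library. Of the 27 genes of the list that were tested, 7 rose (25.9%, against 27.1% of all genes tested) and 9 fell (33.3%, against 26.8%) in erastin-R cells. In RSL3-R cells 4 rose (14.8%, against 23.8%) and 9 fell (33.3%, against 24.9%). Between the survivor groups, 9 were higher (33.3%, against 22.3%) and 5 lower (18.5%, against 26.9%) in RSL3-R cells. IFNAR1, a chain of the receptor for type I interferons, had 845, 951 and 1000 counts in vehicle-treated, 389, 319 and 380 for erastin-R and 769, 779 and 813 for RSL3-R cells. All erastin-R libraries were below the rest, with a log2 fold change against vehicle of -1.36 ± 0.09 (adjusted p = 3.87e-08), and of 1.13 ± 0.09 for RSL3-R against erastin-R cells (adjusted p = 3.84e-07). IFNAR1 was also called lower in RSL3-R cells than in vehicle (-0.23 ± 0.08, adjusted p = 0.0361). That call held in 7 of 16 other settings. TLR3, the endosomal sensor of double-stranded RNA, had 64, 46 and 73 counts in vehicle-treated, 6, 3 and 6 for erastin-R and 21, 15 and 20 for RSL3-R cells. It fell in both survivor groups, with log2 fold changes of -3.57 ± 0.34 (adjusted p = 1.06e-06) and -1.69 ± 0.27 (adjusted p = 1.61e-04), without overlap between any of the 3 conditions.

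**Figure D5:**
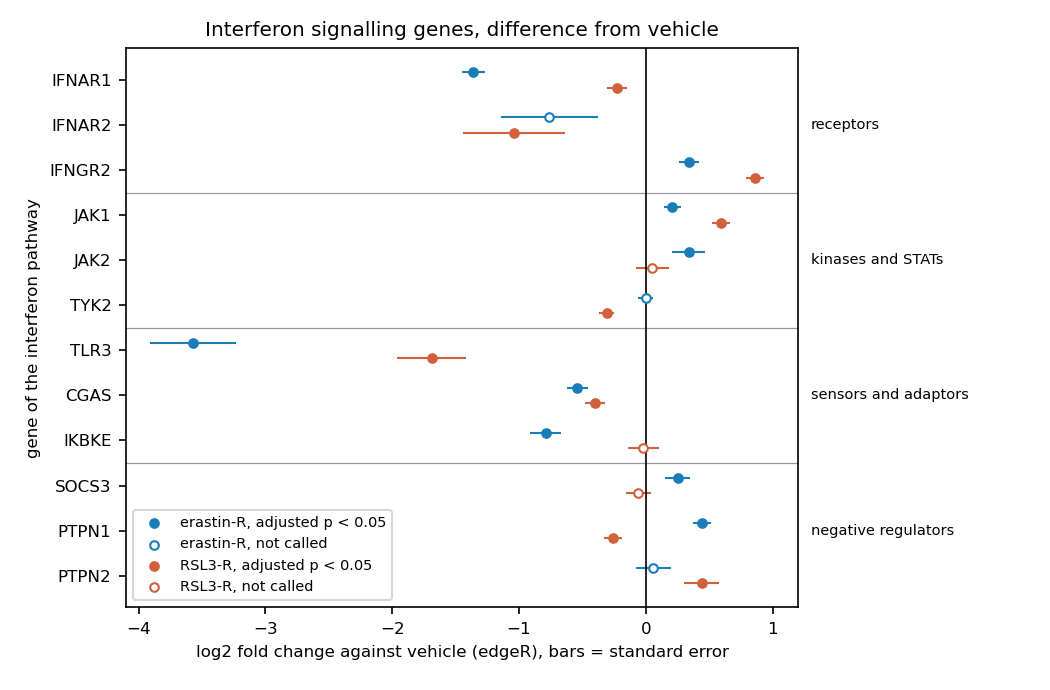
Log2 fold change against vehicle of 12 interferon pathway genes, blue for erastin-R and orange for RSL3-R cells, with the standard error from edgeR as bars. Drawn are the genes among the 3 largest called changes each way in any comparison. This includes RSL3-R against erastin-R, which is not drawn and alone brought in SOCS3 and TYK2. Filled points had an adjusted p below 0.05; TLR3 was lowest in both groups, and IFNAR1 was at -1.36 in erastin-R cells.

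Other changes in this list were smaller. IKBKE, a kinase that activates IRF3, fell in erastin-R cells (-0.79 ± 0.12, adjusted p = 8.39e-05) and was higher in RSL3-R than in erastin-R cells (0.78 ± 0.12). IFNGR2, a chain of the interferon gamma receptor, rose in both (0.34 ± 0.08 and 0.86 ± 0.07), and so did JAK1 (0.21 ± 0.07 and 0.59 ± 0.07). PTPN2, a phosphatase that limits JAK signalling, rose in RSL3-R cells (0.44 ± 0.14). PTPN1, a related phosphatase, rose in erastin-R cells (0.44 ± 0.07) and fell in RSL3-R cells (-0.26 ± 0.07). JAK2 rose in erastin-R cells (0.34 ± 0.13, adjusted p = 0.0361). CGAS, the cytosolic DNA sensor, fell in both (-0.54 ± 0.08 and -0.40 ± 0.08). IFNAR2, at 6 to 20 counts, fell in RSL3-R cells (-1.04 ± 0.40, adjusted p = 0.0433). The calls of JAK2 and IFNAR2 each held in 6 of 16 other settings, with adjusted p values up to 0.161 and 0.143. Both were lost without any 1 of the vehicle libraries, that of JAK2 also without erastin-R replicate 1 or 2 and that of IFNAR2 without any 1 of the RSL3-R libraries. IFNAR2 shares 83.2% of its exon bases with other genes, and its counts are uncertain. PTPN1 (-0.70 ± 0.07), SOCS3 (-0.31 ± 0.10) and TYK2 (-0.31 ± 0.06) were lower in RSL3-R than in erastin-R cells. Without single libraries the calls of JAK1 in erastin-R cells (vehicle replicate 1 or 2), PTPN2 in RSL3-R cells (vehicle replicate 1 or 2, RSL3-R replicate 1) and SOCS3 (erastin-R replicate 3, RSL3-R replicate 1 or 3) were lost, with adjusted p values over the 16 settings of up to 0.0888, 0.0781 and 0.112. The call of PTPN1 in RSL3-R cells was lost without RSL3-R replicate 3.

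Of a further list of 42 interferon-induced genes outside the 38, 40 were tested. In erastin-R cells 24 fell (60.0%, against 26.8% of all genes tested) and 4 rose (10%, against 27.1%), and the median log2 fold change was -0.36. For RSL3-R cells 10 rose and 10 fell, 25% each against 23.8% and 24.9% of all genes tested, with a median of 0.04. Between the survivor groups, 26 were higher (65.0%, against 22.3%) and 4 lower (10%, against 26.9%) in RSL3-R cells, with a median of 0.50. The apolipoprotein L gene APOL3 (-2.28 ± 0.22), LGALS9 (-1.74 ± 0.51, at 2 to 16 counts) and the cytosolic antibody receptor TRIM21 (-1.61 ± 0.20) fell most in erastin-R cells. RNF213, a large ubiquitin ligase, rose most (0.71 ± 0.06), ahead of PLSCR1 (0.33) and SHISA5 (0.32). In RSL3-R cells APOL6 (0.85), the DNA sensor IFI16 (0.76) and DDX60L (0.72) rose most, and TRIM14 (-0.91), GBP1 (-0.91), a GTPase acting on pathogen membranes, and LAP3 (-0.88) fell most. Between the survivor groups, LGALS9 (1.97) and APOL3 (1.54) were among the highest in RSL3-R relative to erastin-R cells, and TRIM14 (-0.63), LAP3 (-0.50) and SHISA5 (-0.43) were lowest.

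Some calls of members rested on single libraries. Of the 21 members that fell in erastin-R cells, replicate 1 was the highest of the 3 erastin-R libraries for 15. Without that library, 21 members fell and 8 rose in erastin-R against vehicle. USP18 was then lost, DDX58, IFI6 and IFI27 passed, and IFIT1, SAMD9, IFI27 and XAF1 passed in RSL3-R against vehicle. In erastin-R against vehicle, the fall of USP18 was also lost without vehicle replicate 2 or erastin-R replicate 2, and the rise of DHX58 without vehicle replicate 3 or erastin-R replicate 2. The falls of IFIH1 and PARP14 each held in 9 of 16 other settings, IFIH1 being lost without vehicle replicate 1 or 3, erastin-R replicate 2 or 3, or RSL3-R replicate 1, and PARP14 without vehicle replicate 2 or 3, erastin-R replicate 2 or 3, or RSL3-R replicate 3. In RSL3-R against vehicle, the calls of IFIT2 and OASL each held in 10 of 16. They were lost without any 1 of the RSL3-R libraries, without vehicle replicate 3, and without vehicle replicate 1 for IFIT2 or 2 for OASL. ISG15 was lost without vehicle replicate 3 or RSL3-R replicate 1, and IRF7 without vehicle replicate 2 or 3 or RSL3-R replicate 2. In the direct comparison, IRF7 was lost without erastin-R replicate 2 or 3 and without RSL3-R replicate 1 or 3. HERC5 was lost without any 1 of the RSL3-R libraries, erastin-R replicate 2 or 3, or vehicle replicate 2, and STAT2 without erastin-R replicate 2 or RSL3-R replicate 2.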

How the data were processed

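RNA of 9 libraries of MDA-MB-231 cells was analysed, 3 each of vehicle-treated, erastin-R and RSL3-R cells, grouped by their labels. The authors deposited raw counts per gene, without normalization. Their processing notes name HISAT2 2.0.5 and featureCounts 1.5.0-p3, and the strand setting is not given in the sources used here. The FPKM values in the same files were not used. All 58735 identifiers are in GENCODE 29 (GRCh38), 58690 with the same coordinates.

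The tests were run with edgeR 4.0.16 in R 4.3.3 (TMM scaling, filterByExpr, 1 quasi-likelihood model of all 9 libraries). Adjustment was by Benjamini-Hochberg over 16188 genes. Standard errors were derived from the fold change and its F value. The coefficient of variation was 8.56%. Members were called at an adjusted p below 0.05, and under a stricter rule that also needs a log2 fold change of 1 or more in size. Values per library are CPM with TMM factors. Values in every library are given for the 6 largest called changes per comparison and for STAT2, IRF9, IRF1 and IRF7, and for both other lists the 3 largest changes each way; counts per library are added for IFNAR1, TLR3, USP18 and untested members, chosen after their values were seen. The members, lists and rules were chosen with earlier results of these data known. The model was tested on simulated counts. Alternatives were DESeq2 1.42.0, upper-quartile factors, quantile normalization with limma 3.58.1, 2 other filters, only the 2 groups compared, a replicate block, each of 9 libraries left out, and the fold threshold. Single results of a few genes that these rules cover are not reported here. DDX58 was matched to its RefSeq promoter by synonym. Figures were drawn with matplotlib 3.10.9.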

Additional observations from a re-analysis of the deposited data

Results flagged for a closer look

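For 6 members the calls against vehicle went opposite ways, down in erastin-R cells and up in RSL3-R cells. The difference between the survivor groups was also tested directly (edgeR, RSL3-R against erastin-R). These members were chosen by their calls in the same libraries, so the choice favoured a positive difference, and the direct test is no separate support. The share of all genes with such opposite calls was not determined. EPSTI1 differed by 2.37 on the log2 scale (adjusted p = 5.04e-07), IFI44L by 1.93 (8.97e-07), IFIT2 by 1.37 (1.07e-06), IFIH1 by 1.03 (1.17e-04), IFI44 by 0.90 (8.19e-06) and PARP14 by 0.51 (8.23e-05). All RSL3-R libraries were above all erastin-R libraries for each of the 6, which the choice also favoured. The fall of IFIH1 and of PARP14 in erastin-R cells held in 9 of 16 other settings each, and the rise of IFIT2 in RSL3-R cells in 10 of 16. The vehicle libraries are shared by both calls of each gene.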

How the results depend on the processing

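No call of a member changed direction in any of the 16 other fits. With the fold threshold, the members that rose and fell numbered 0 and 13 in erastin-R and 2 and 2 in RSL3-R cells, and 11 and 1 in RSL3-R against erastin-R cells. Members close to this threshold crossed it in some of the 16 fits. In erastin-R cells IFIT2 ranged from -1.25 to -0.97, IFIT3 from -1.14 to -0.93 and USP18 from -1.23 to -0.84. IFIT1, not counted at -0.99, ranged from -1.16 to -0.87. ISG20 in RSL3-R cells ranged from 0.92 to 1.09. The number lower in RSL3-R than in erastin-R cells was 1 with upper-quartile factors and with only the 2 groups compared, where IRF7 was lost, and 1 to 3 with single libraries left out. The other 5 counts stayed within 1.5 times in all 16 fits; left-out libraries lowered the members higher in RSL3-R than in vehicle to 10. Small differences that were not called changed sign. ISG20 in erastin-R cells ranged from -0.23 to 0.02 and DDX60 from -0.01 to 0.09 with single libraries left out, and OAS2 in RSL3-R cells from -0.15 to 0.02. DDX60 in erastin-R cells was -0.02 with upper-quartile factors, and IRF1 in RSL3-R cells 0.02 with quantile normalization. Libraries with the same replicate number correlated at -0.0904 to 0.0518 after the condition means were removed, and others at -0.088 to 0.123. From 3 libraries per condition it cannot be told whether the same number marks a shared batch. With the replicate block 20 members fell and 6 rose in erastin-R cells, 13 rose and 5 fell in RSL3-R cells, and 26 were higher and 2 lower in RSL3-R than in erastin-R cells; PARP14, IFIT2 and MX2 lost a call and MX1 gained one. Depth limits USP18, OAS1, RSAD2, CMPK2 and the interferon genes.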
